A study of Homo sapiens with 8 samples.

Results

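Class I antigen presentation was followed through 9 genes, HLA-B, HLA-C, HLA-E, HLA-F, B2M, TAP1, PSMB8, PSMB9 and NLRC5, chosen by symbol from the 36601 genes of the count matrices. All 9 were found, and each had UMIs in every barcode population. The cells were HMLE, an immortalised line of human mammary epithelial cells, in a study of the transition from epithelial to mesenchymal state under TGF-β and of pyridostatin, a ligand of G-quadruplex DNA. Per the labels, 12 samples were each marked with a short barcoded oligonucleotide (SBO01 to SBO12), detached with TrypLE, held in 0.04% BSA, combined in like numbers to a density of 1000 cells per µL, and run on a 10x Genomics 5' kit. There were 4 mRNA libraries, each with a matching barcode library. The labels tie no barcode to TGF-β, pyridostatin or a time, so no treated group could be set against an untreated one, and the 12 populations are described by value only.

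MHC class I molecules show peptides from inside the cell to CD8+ T cells. The immunoproteasome, which holds the inducible subunits PSMB8 and PSMB9, cuts proteins into peptides. The TAP transporter, of which TAP1 is a subunit, carries the peptides into the endoplasmic reticulum, where they are loaded onto a heavy chain (HLA-B, HLA-C and the less variable HLA-E and HLA-F) paired with the light chain β2-microglobulin, encoded by B2M. NLRC5 is a transactivator that acts at class I promoters, and interferons raise the whole group in most cell types. Nearly all nucleated cells, epithelial cells included, carry class I on their surface.

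In GENCODE 29 on GRCh38, the build of the files, 7 of the 9 genes lie on chromosome 6, in the MHC: HLA-F at 29722775 to 29738528, HLA-E at 30489467 to 30494205, HLA-C at 31268749 to 31272130, HLA-B at 31269491 to 31357188, PSMB8 at 32840717 to 32844703, PSMB9 at 32844136 to 32859585 and TAP1 at 32845209 to 32853978. B2M lies on chromosome 15 (44711487 to 44718877) and NLRC5 on chromosome 16 (56989485 to 57083531). Several of these gene models share ground. The HLA-B model reaches over HLA-C on the same strand, HLA-F overlaps HLA-F-AS1 on the other strand, and TAP1, PSMB8 and PSMB9 overlap one another or PSMB8-AS1. Whether the counting used strand is not given in the sources used here, so reads of overlapping genes on the 2 strands may not be told apart. Of the windows of 75 bases in the HLA-B, HLA-F, B2M, PSMB8 and NLRC5 transcripts, none occurred in a transcript of another gene. The share was 1.96% for HLA-C, 2.02% for HLA-E, 0.208% for TAP1 and 9.05% for PSMB9, and within the first 500 bases, which a 5' kit reads, only PSMB9 shared any, 15.3%, with PSMB8-AS1. PSMB9 values are uncertain to that extent.

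Promoter sequences for 7 of the members were found in RefSeq's GRCh38.p14 table, HLA-E and NLRC5 not being in it. The 250 bases before the start are shown for 5 of them, since they carry the motifs by which interferon-driven and NLRC5-driven genes are usually recognised. All are written 5′ to 3′ on the gene's strand. Capitals mark matches on either strand to the core of the interferon-stimulated response element (GAAA, any 2 bases, GAAA), the X2 box TGACGC and the Y box CCAAT.
HLA-B (chr6:31357180-31357429, minus strand): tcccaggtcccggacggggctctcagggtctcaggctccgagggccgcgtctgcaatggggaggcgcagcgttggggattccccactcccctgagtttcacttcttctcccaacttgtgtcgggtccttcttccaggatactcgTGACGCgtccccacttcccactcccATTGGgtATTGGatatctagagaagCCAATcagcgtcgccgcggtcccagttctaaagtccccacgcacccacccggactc
HLA-C (chr6:31272093-31272342, minus strand): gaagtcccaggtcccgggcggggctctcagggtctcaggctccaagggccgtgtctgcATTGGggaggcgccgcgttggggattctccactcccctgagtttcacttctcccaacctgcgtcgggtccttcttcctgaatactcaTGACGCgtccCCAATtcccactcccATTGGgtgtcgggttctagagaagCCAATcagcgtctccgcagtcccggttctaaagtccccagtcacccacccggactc
HLA-F (chr6:29723184-29723433, plus strand): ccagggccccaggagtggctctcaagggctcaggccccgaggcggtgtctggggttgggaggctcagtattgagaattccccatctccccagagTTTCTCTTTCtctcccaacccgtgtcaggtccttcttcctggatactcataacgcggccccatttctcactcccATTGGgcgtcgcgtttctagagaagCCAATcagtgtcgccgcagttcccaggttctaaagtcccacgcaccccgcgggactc
B2M (chr15:44711267-44711516, plus strand): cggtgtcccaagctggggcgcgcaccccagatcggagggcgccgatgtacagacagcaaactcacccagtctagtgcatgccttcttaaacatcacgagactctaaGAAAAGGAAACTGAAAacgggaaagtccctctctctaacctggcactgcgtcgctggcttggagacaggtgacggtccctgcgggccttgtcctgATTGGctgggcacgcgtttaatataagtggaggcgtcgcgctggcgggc
TAP1, upstream start (chr6:32853705-32853954, minus strand): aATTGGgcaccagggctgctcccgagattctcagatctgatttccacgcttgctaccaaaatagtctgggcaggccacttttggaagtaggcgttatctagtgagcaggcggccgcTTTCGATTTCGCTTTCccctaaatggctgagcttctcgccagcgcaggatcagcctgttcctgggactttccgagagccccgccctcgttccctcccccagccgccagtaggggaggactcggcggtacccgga
The table gives 9 windows for the 7 members, with an upstream and a downstream start for both TAP1 and PSMB8. The response element core occurred in 4 of the 9, those of HLA-F, B2M, the upstream start of TAP1 and the downstream start of PSMB8, against 3.57% of all 35116 promoters of the same 300 bases, which run from 250 before to 50 after the start. In HLA-F it began 156 bases before the start, in B2M there were overlapping matches at -144 and -138, and in TAP1 at -134 and -128. The X2 box stood at -106 in HLA-B and -105 in HLA-C, each followed by Y boxes, and was found in 9.14% of all promoters. The Y box itself was in 6 of the 9 windows, none of them of PSMB8, and in 34.6% of all promoters. The windows of PSMB9 and of the upstream start of TAP1 overlap, and their Y box matches are the same bases. The gamma-activated site TTCNNNGAA was in 2 windows, those of the downstream starts of TAP1 (not printed) and PSMB8, and in 7.66% of all promoters. A G-quadruplex motif, 4 runs of at least 3 G with 1 to 7 bases between them, was also in 2 windows, those of the upstream start of TAP1 and the downstream start of PSMB8, and in 25% of all promoters. The HLA-B and HLA-C windows shared a run of 25 bases, against 18 between HLA-B and HLA-F. TAP1 and PSMB9 are transcribed away from each other, with 487 bases between the upstream start of TAP1 (32853704) and the start of PSMB9 (32854192). A match is a string of letters only, and binding was not measured.

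SBO01 to SBO06 came from the first and second library and SBO07 to SBO12 from the other two, so the libraries are 2 loads of each of 2 pools. Of 26247 cell barcodes 22147 were kept (4125 to 7600 per library, with medians of 22198.5 to 38051 UMIs per cell), and 11072 cells carried a single barcode. Of the cell barcodes, 899 occurred in more than 1 library. Another barcode had more UMIs than the assigned one in 774 of the 1227 cells of SBO12, 156 of the 525 of SBO11, 114 of the 564 of SBO02 and 103 of the 1718 of SBO01. The epithelial keratin KRT7 was at 1552 CPM or more in every population, but the populations were not equally epithelial. The mean log2(CPM + 1) of 12 epithelial genes was 4.57 in SBO05, 6.55 in SBO12 and 6.72 in SBO01, against a median of 7.48. That of 12 mesenchymal genes was 6.27 in SBO05, against a median of 3.52. That of 8 basal genes was 9.16 in SBO01, 8.997 in SBO12 and 5.54 in SBO05, against a median of 7.95. SBO01, SBO05 and SBO12 were also lowest in class I, and the part of these differences there was not tested. The leukocyte markers CD3E, TYROBP and PTPRC had 0, 1 and 5 UMIs in all 11072 cells. Of the 8 leukocyte markers, CD68, also a general lysosomal protein, was the one with sizeable counts, at 12.1 to 36.6 CPM.

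Averaged over the 9 genes, the class I level was lowest in SBO12, SBO01 and SBO05 and highest in SBO02, SBO04 and SBO03. Single genes departed from this order: SBO10 stood below SBO05 for HLA-C, HLA-E, PSMB9 and NLRC5. SBO07 stood above SBO03 for HLA-B, but with overlapping loads. Levels are given in CPM, a gene's UMIs relative to all UMIs of the same cells. The widest range was in HLA-B, a classical heavy chain. It stood at 182, 723, 665, 837, 181 and 460 CPM in SBO01 to SBO06, and at 706, 660, 282, 327, 454 and 129 CPM in SBO07 to SBO12. The highest value, in SBO04, was 6.51 times the lowest, in SBO12, and the 2 loads of a population differed by at most 0.25 on the log2 scale. Neighbours in the order overlapped in their loads at 181 to 182 CPM and at 660 to 723 CPM. SBO08 (647 and 673 CPM) did not overlap SBO07 (710 and 703 CPM), and the low and the high ends did not overlap.

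HLA-C, the other classical heavy chain here, kept a narrower span, with SBO12 lowest at 255 CPM, a median of 463 and SBO02 highest at 652 CPM. HLA-E, whose product presents signal peptides to natural killer cell receptors, varied least, its lowest level (SBO12) being 89.4 CPM and its highest (SBO02) 147 CPM, a ratio of 1.64. HLA-F, a non-classical heavy chain, spanned a ratio of 5.80, with SBO05 lowest and SBO02 highest. Its values were 21.8, 69.3, 54.99, 57.0, 11.9 and 43.0 CPM in SBO01 to SBO06, and 42.8, 41.3, 25.8, 23.3, 31.5 and 16.1 CPM in SBO07 to SBO12. HLA-F was thus lower in SBO05 than in SBO12 in both loads, while HLA-B was lower in SBO12.

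B2M was at 1400, 2811, 2733, 2798, 1322 and 2259 CPM in SBO01 to SBO06, and at 2545, 2310, 1644, 1751, 1995 and 1250 CPM in SBO07 to SBO12. From end to end the light chain spanned 2.25 times, more than HLA-E and less than HLA-B, HLA-C and HLA-F. Its loads were offset in 1 direction: B2M was higher in the first load than in the second in 12 of 12 populations, and HLA-C in 0 of 12. The median size of that offset was 0.10 for B2M and 0.06 for HLA-C on the log2 scale, so differences of that size between populations were not read as differences.

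Of the peptide supply genes, TAP1 stood between 37.8 CPM (SBO05) and 91.2 CPM (SBO02), with a median of 64.1 CPM. PSMB8 stood between 71.9 CPM (SBO12) and 191 CPM (SBO04), with a median of 134 CPM, and PSMB9 between 47.6 CPM (SBO12) and 117 CPM (SBO02), with a median of 89.0 CPM. SBO05 took different places for these genes. Its TAP1 loads overlapped those of SBO12 at the bottom, its PSMB8 (99.8 CPM) lay above SBO12 and SBO01 only, and its PSMB9 (82.0 CPM) also above SBO10 and SBO09. NLRC5 was at 2.38 CPM in SBO12, 3.83 CPM at the median and 5.92 CPM in SBO03, where the loads gave 4.68 and 7.26 CPM. NLRC5 rests on 41 to 162 UMIs per population.

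**Figure D1:**
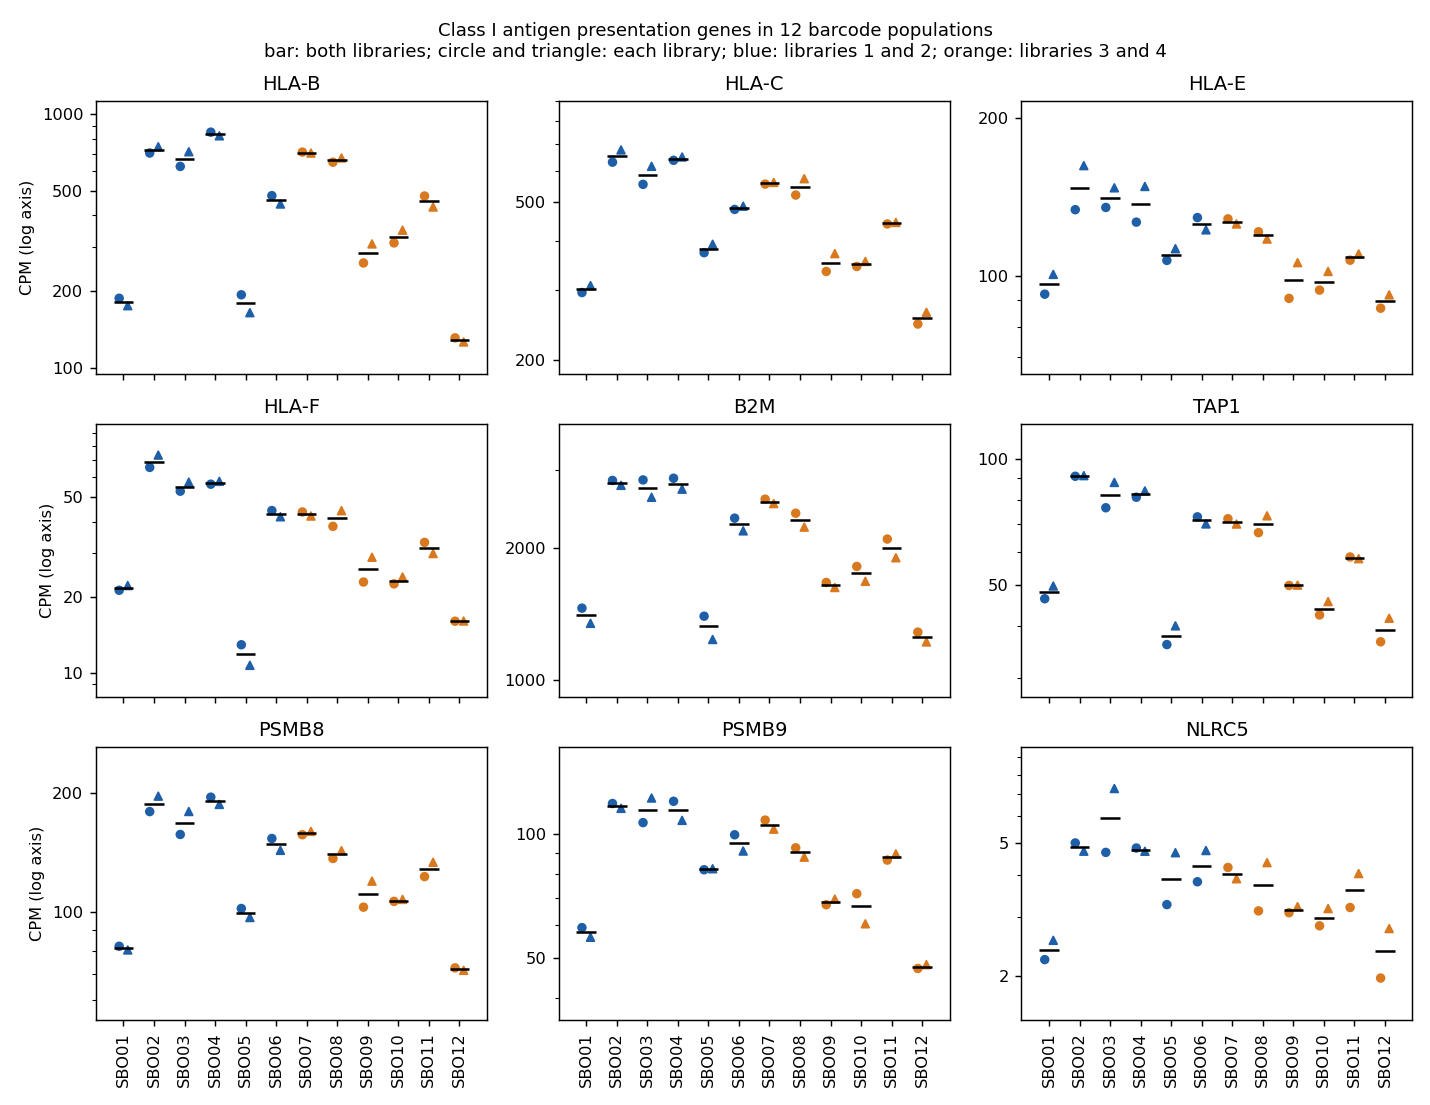
Level of each of the 9 genes (CPM, log axis) in barcode populations SBO01 to SBO12. Black bars are both libraries of a population together and the circle and triangle its first and second library. SBO01 and SBO12 lie low and SBO02, SBO03 and SBO04 high in most panels, with HLA-B spanning 129 to 837 CPM and HLA-E 89.4 to 147 CPM.

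Ordered from low to high, neighbouring populations overlapped in their loads in 4 of 11 pairs for HLA-C, HLA-F, TAP1 and PSMB8, in 5 for HLA-B and B2M, in 6 for PSMB9, in 7 for HLA-E and in 10 for NLRC5. The order of NLRC5 is therefore hardly resolved. Among the 8 members with a mean of at least 20 CPM, 7 ranged by 1 or more on the log2(CPM + 1) scale, HLA-E being the exception, where 15.7% of 6097 such genes did. The median range was 1.28 for the members and 0.50 for all such genes. SBO12 held the lowest value of 7 members (NLRC5, which is under 20 CPM, among them) and SBO05 that of HLA-F and TAP1, while, of the genes over 20 CPM, 10.97% and 29.2% were lowest there. SBO02 held the highest value of 6 members (12.7% of all such genes).

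The assignment of cells bears on these levels. In SBO01, HLA-B was at 465 CPM in the 103 cells with another barcode higher and at 167 CPM in the rest. In SBO11 it was at 706 CPM in the 156 such cells against 363 CPM, in SBO02 at 576 against 757 CPM, and in SBO12 at 139 against 112 CPM. SBO04, which held the highest HLA-B level, had 58 such cells among its 352, but its level was not divided in this way. With only cells whose own barcode was highest, the range of HLA-B was 2.92 on the log2 scale, against 2.69 with all. COL1A1, a collagen gene at 212 CPM in SBO05, was at 14.8 to 28.1 CPM in the other populations of that pool and at 4.69 to 7.17 CPM in the other pool. The part of free RNA and of misassigned cells in the class I levels was not tested.

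The rest of the pathway followed the members unevenly. The mean log2(CPM + 1) of the 10 proteasome genes lay between 8.08 and 8.18, while the 9 members' mean ran from 6.09 in SBO12 to 7.46 in SBO02. That narrow mean covers genes that differed in direction. PSMB10, an inducible subunit, was lowest in SBO01 (77.9 CPM) and highest in SBO02 (142 CPM), and PSME1, of the PA28 activator, stood between 148 CPM in SBO12 and 253 CPM in SBO05. PSMB7, which PSMB10 replaces, was lowest in SBO05 (303 CPM) and highest in SBO12 (424 CPM). PSMB5, the constitutive subunit that PSMB8 replaces, was lowest in SBO03 (310 CPM) and highest in SBO05 (401 CPM), and PSMB6, which PSMB9 replaces, lay between 439 CPM in SBO02 and 502 CPM in SBO12. TAPBP, the tapasin that bridges TAP and class I, was at 41.3 CPM in SBO05 and 104 CPM in SBO02, its ends, and TAP2, the partner of TAP1, at 45.9 and 104 CPM in the same populations. CALR, a general chaperone of the loading complex, was highest in SBO05, at 991 CPM. Of the regulators, IRF1 had its lowest level in SBO12 (25.6 CPM) and its highest in SBO02 (116 CPM). MHC class II, found mainly on professional antigen-presenting cells, was nearly silent: HLA-DRA had 36 UMIs and its transactivator CIITA 112 UMIs in 11072 cells. The invariant chain CD74 alone was sizeable, with 22.7 CPM in SBO05 and 147 CPM in SBO04 as its ends.

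The genes whose pattern over the 12 populations was most like the mean class I pattern were found by the root mean square difference of centred log2(CPM + 1) profiles, over 6089 genes. The closest 10 lay at 0.13 to 0.17, against a median of 0.48. They included TRIM14, EIF2AK2, LGALS3BP, IFITM3, ZNFX1, IFIT5, TRIM25, TAPBP and DTX3L. EIF2AK2, the RNA-sensing kinase PKR, lay between 88.3 CPM (SBO05) and 206 CPM (SBO03), and IFITM3, a membrane protein that limits virus entry, between 695 CPM (SBO12) and 1761 CPM (SBO04). Without SBO05, 6 of the 10 stayed among the closest 10.

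Single cells differed widely within a population. Cells were thinned to 10000 UMIs, which 10233 of the 11072 reached, so that the shares of all populations refer to the same depth. B2M was detected in 99.98% of them, HLA-C in 93.3% and HLA-B in 76.0%. The shares were 63.6% for HLA-E, 62.9% for PSMB8, 49.0% for PSMB9, 39.3% for TAP1, 23.8% for HLA-F and 3.29% for NLRC5. Unthinned, at a median of 28527.5 UMIs, they were 89.6% for HLA-B, 46.6% for HLA-F and 9.47% for NLRC5. The exact binomial intervals at 95%, covering only counting error, were 75.1 to 76.8% for HLA-B and 2.96 to 3.66% for NLRC5. No cell type that lacks class I was at hand to measure free RNA, so a share stands for cells with a UMI and not for cells expressing the gene.

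HLA-B was found in 54.3% of the thinned cells of SBO12, 63.1% of SBO01 and 66.0% of SBO05, and in 71.5 to 94.5% of the other populations, the highest in SBO07. HLA-F was found in 9.21% of SBO05 and 42.9% of SBO02. UMIs of all 9 genes together had a median of 24 per cell, from 16 in SBO12 to 43 in SBO04, and 5 to 95% of all cells lay between 10 and 77. The upper end of SBO12 (95th percentile 39) therefore stayed under the median of SBO04. Cell by cell, within each of 24 combinations of population and library, HLA-B and B2M had a median Pearson r of 0.61 and HLA-B and HLA-C of 0.60, while HLA-B and NLRC5, which is sparse, had 0.05. These describe cells of shared libraries and carry no test.

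**Figure D2:**
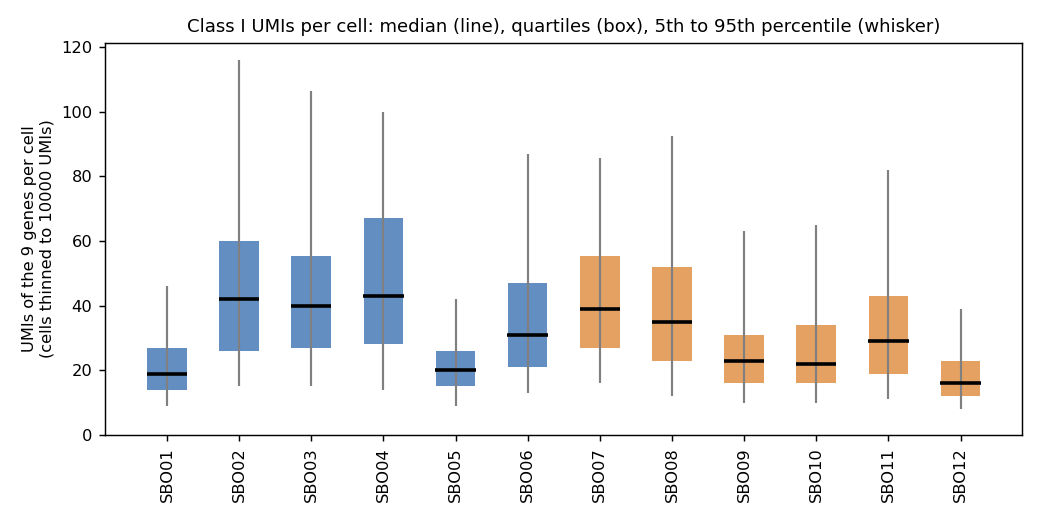
UMIs of the 9 class I genes together per cell, in cells thinned to 10000 UMIs, for SBO01 to SBO12 (blue: libraries 1 and 2, orange: libraries 3 and 4). Black lines are medians, boxes quartiles and whiskers the 5th to 95th percentile. Medians run from 16 in SBO12 to 43 in SBO04, and the whiskers of all populations overlap.

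Whether class I goes with interferon-stimulated genes inside a population was asked by ranking cells, separately per population and library, on 20 interferon-stimulated genes, none of them a member, and dividing them into tiers of equal size. All 9 members rose from the low to the high tier. HLA-B was at 208, 191, 212 and 218 CPM in the low tier of libraries 1 to 4 and at 572, 609, 613 and 667 CPM in the high tier. These groups lay far apart, with a log2 fold change of 1.52 ± 0.02 (SE, n = 4 libraries; edgeR's quasi-likelihood test, adjusted p = 3.764e-22). HLA-F, from 19.0 ± 0.72 to 46.6 ± 5.48 CPM (mean ± SD, n = 4), rose by 1.24, and B2M, from 1347 ± 56.4 to 2556 ± 61.0 CPM, by 0.87 on the log2 scale.

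PSMB9 rose by 0.98, TAP1 by 0.94, NLRC5 by 0.88, HLA-C by 0.82, PSMB8 by 0.80 and HLA-E by 0.46, with adjusted p-values from edgeR of at most 2.731e-07, that of NLRC5. The 4 high-tier libraries were above all 4 low-tier libraries for each of the 9. Over all 15306 genes tested, 16.8% rose and 18.4% fell, with a median of 0.01 for all genes and 0.88 for the members. With DESeq2, which differs in scaling and in its test, 37.05% of the calls were rises, against 47.8% with edgeR. All 9 members rose under both. By population, 8 members were higher in the high tier in 12 of 12 populations and NLRC5 in 11 of 12. HLA-B gained least where the difference was 1.08 and most where it was 2.15.

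The tiers were even in depth and mitochondrial share, with a median of 29360 UMIs and 1.53% in the high and 30080 UMIs and 1.60% in the low tier. With the interferon score 6 of 8 basal markers fell and 2 rose, KRT17 by 0.31 and LAMA3 by 0.48. Of the epithelial score genes 8 of 12 rose and 0 fell. Of the 12 mesenchymal score genes 3 rose and 2 fell, near the 16.8% and 18.4% of all genes. FN1, COL5A1 and SPARC rose by 0.64, 0.33 and 0.11, and PRRX1 and TWIST1 fell by 0.875 and 0.17. Of the tested markers of other cell types CD68 rose by 0.47, CDH5 by 0.73 and the fibroblast gene DCN by 1.202, and FAP fell by 0.21; their part was not tested. Without the cells in which another barcode was higher, HLA-B rose by 1.45. When tiers were cut across whole libraries instead, so that populations also differed between tiers, HLA-B rose by 2.61 and HLA-F by 1.88. The libraries were read as loads of pools, so all p-values measure spread between libraries and not between cultures.

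Around the members, 7 of 8 loading genes rose, CANX (-0.04, adjusted p = 0.1129) not passing. ERAP2, an aminopeptidase that trims peptides, rose by 0.96, and TAPBPL, a peptide editor, by 0.81. Of the 10 proteasome genes 3 rose and 5 fell: PSME2 and PSME1, the PA28 activator, rose by 0.43 and 0.37, while the constitutive subunits PSMB6 and PSMB1 fell by 0.13 and 0.12. Of 14 regulators 6 rose and 1 fell, with IRF9, a factor that binds response elements, at 1.42 and NFYB, a subunit of the Y box factor, at -0.12. Of 10 receptor and kinase genes 7 rose, among them SOCS1, a feedback inhibitor, by 0.77 and JAK2 by 0.64. All 9 tested genes of the interferon-γ response list rose, CXCL10, a chemokine, by 5.94 and IDO1, which degrades tryptophan, by 5.10. Of the 9 class II genes 4 could be tested and all 4 rose, HLA-DPB1 by 1.21 and HLA-DPA1 by 1.02, genes at no more than 1.19 and 1.08 CPM in any population.

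**Figure D3:**
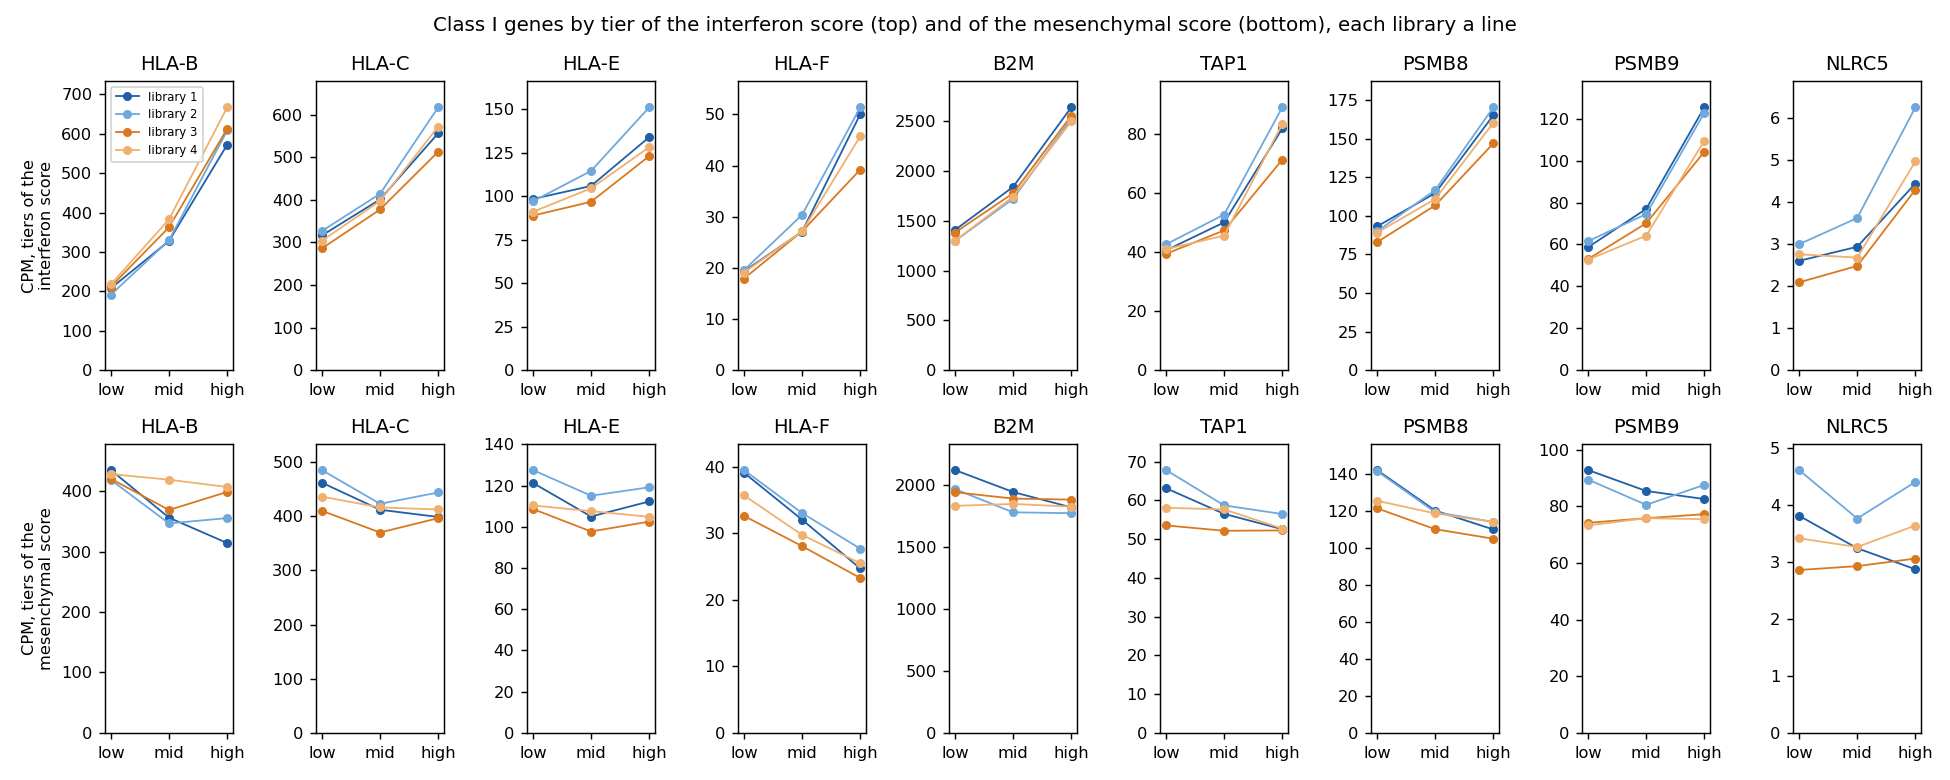
Level of the 9 genes (CPM, axis from 0) in the low, middle and high tier of the interferon score (top) and of the mesenchymal score (bottom), each line 1 of the 4 libraries. In the top row every line ends higher than it starts, HLA-B going from 207 to 615 CPM on average. In the bottom row HLA-F falls in all 4 libraries, from 36.8 to 25.3 CPM on average. The other called members also end lower than they start in all 4 libraries, by less on the log2 scale. PSMB9 and NLRC5 end higher in 2 libraries.

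Cells were also ranked within population and library on a mesenchymal score, 12 mesenchymal minus 12 epithelial genes. Towards the mesenchymal end 7 of 9 members fell, by little, against 16.2% of 15271 genes that fell and 17.6% that rose. HLA-F fell most, from 39.1, 39.5, 32.6 and 35.7 CPM in libraries 1 to 4 to 24.7, 27.7, 23.3 and 25.5 CPM. The groups did not overlap, and the log2 fold change was -0.53 ± 0.04 (SE, n = 4; edgeR, adjusted p = 8.424e-09). PSMB8 fell from 132 ± 10.7 to 111 ± 4.31 CPM (-0.25, edgeR adjusted p = 1.301e-05) and HLA-B from 425 ± 7.52 to 369 ± 42.8 CPM (-0.20, edgeR adjusted p = 0.003269), also without overlap. TAP1 (-0.17), HLA-C (-0.11), B2M (-0.10) and HLA-E (-0.08) passed as well. Each was lower in the high tier in all 4 libraries, but values of different libraries overlapped between the tiers. Not all falls were graded along the score. HLA-C and HLA-E averaged 405 and 106 CPM in the middle tier, below 413 and 110 CPM in the high tier. HLA-B averaged 372 CPM in the middle tier. From the middle to the high tier it went from 346 to 355 CPM in library 2 and from 369 to 399 CPM in library 3. PSMB9 (-0.02, edgeR adjusted p = 0.7406) and NLRC5 (-0.07, edgeR adjusted p = 0.6725) did not pass. The members' median was -0.11, that of all genes tested 0.01.

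The high mesenchymal tier had a median of 28470 UMIs and the low tier 30220, and 6 of 8 basal and 3 of 3 tested fibroblast markers rose along the score. The 2 tested leukocyte markers fell, CD68 by 0.23 and CD14 by 0.56, as did the 1 tested endothelial marker, CDH5, by 1.21; the part of these markers was not tested. The falls went together with the interferon-stimulated genes, of which 18 of 20 fell along the same score, with a median of -0.39. When the mesenchymal tiers were cut inside the interferon tiers, an alternative added after the data were seen, HLA-F (-0.39, edgeR adjusted p = 5.539e-08) and PSMB8 (-0.17, edgeR adjusted p = 0.0001147) were still called. HLA-B was then at -0.06 (edgeR adjusted p = 0.2265), TAP1 at -0.08, HLA-C and HLA-E at -0.03, B2M at -0.01 and PSMB9 at 0.09, none of them passing. Without SBO01 and SBO12, low in class I and with cells of doubtful barcode, 4 members were called, HLA-B, HLA-F, TAP1 and PSMB8. Without the library block 2 were, HLA-F and PSMB8, while the sizes hardly moved (HLA-B -0.19, TAP1 -0.17, HLA-C -0.11, B2M -0.10). HLA-F was lower in the high tier in 12 of 12 populations, from -0.98 to -0.13, and PSMB8 in 11 of 12. The other called members went the other way in some populations: HLA-B and B2M in 2, HLA-E in 3, HLA-C and TAP1 in 1. HLA-B was higher in the high tier by 0.46 in SBO09 and by 0.24 in SBO10.

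Some of the smaller falls moved with the pool, with library 1 or with the assignment. In libraries 1 to 4 the log2 difference of HLA-B was -0.47, -0.24, -0.08 and -0.07. That of B2M was -0.22, -0.15, -0.05 and -0.005, and that of TAP1 -0.26, -0.26, -0.04 and -0.14. HLA-E was more even, at -0.11, -0.10, -0.08 and -0.07. The difference between the pools was not tested. Without library 1, HLA-B fell by 0.12 instead of 0.20 and B2M (-0.06, edgeR adjusted p = 0.06984) was no longer called. HLA-E lost its call without library 1, 2 or 3 at nearly the same size (-0.077, -0.085 and -0.091, against -0.084 with all). With the top barcode rule, which assigns a cell by a clear lead of 1 barcode, HLA-B fell by 0.35, B2M by 0.15, HLA-C by 0.16 and HLA-E by 0.14, and PSMB9 by 0.13 was called. With tiers across whole libraries HLA-B fell by 1.03, HLA-F by 1.43 and B2M by 0.56.

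The counts that follow stand beside 16.2% of all genes falling and 17.6% rising, and those of the regulators, receptors, interferon-γ response and class II genes lie near these shares. Of the loading genes 4 of 8 fell with the mesenchymal score, TAPBPL by 0.41 and TAP2 by 0.25, and none rose. Of the proteasome genes 6 of 10 fell, PSMB10, the third inducible subunit, by 0.31 and PSME2 by 0.17. Of the 14 regulators 3 fell and 1 rose, IRF1, a factor that binds response elements, falling by 0.46, IRF2 by 0.16 and RFXANK, a subunit of the X box complex, rising by 0.12. Of the receptors IFNLR1, a chain of the interferon-λ receptor, fell by 0.32 and IFNGR2, a chain of the interferon-γ receptor, rose by 0.11. Of 9 tested interferon-γ response genes 2 fell, IDO1 by 1.44 and GBP4, a guanylate-binding protein, by 1.01. The other 7 did not pass, among them CXCL10 at 0.29 and GBP1 at 0.12. CD74, at -0.34, was the 1 of 5 tested class II genes that fell.

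**Figure D4:**
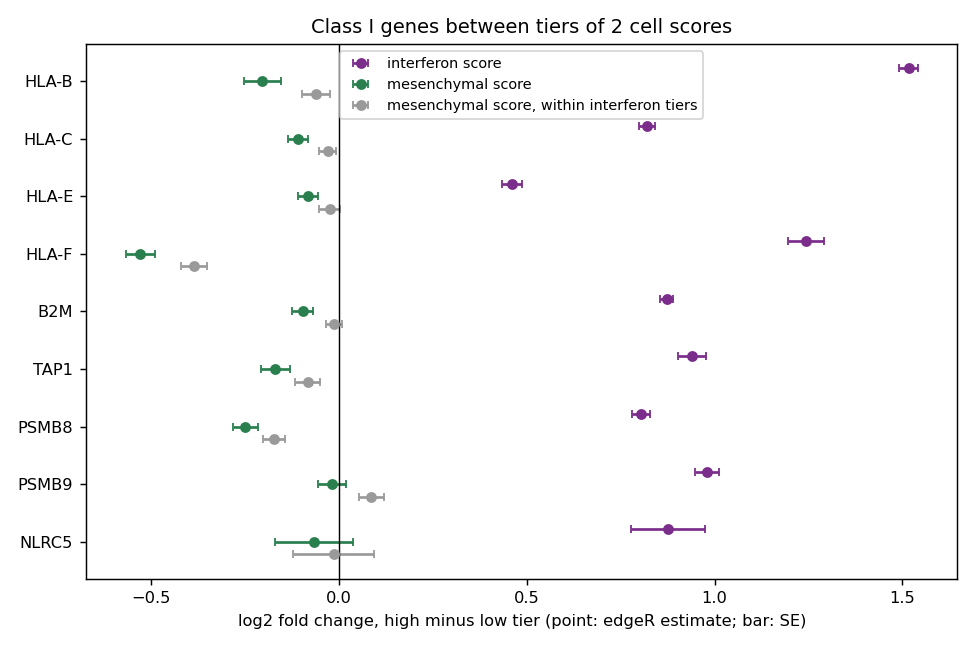
Log2 fold change of each gene between the high and the low tier (points: edgeR estimates, bars: SE) for the interferon score, for the mesenchymal score, and for the mesenchymal score cut inside interferon tiers. Interferon values lie between 0.46 and 1.52, mesenchymal values between -0.53 and -0.02, and inside interferon tiers only HLA-F and PSMB8 pass the test.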

How the data were processed

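Raw UMI counts of 36601 genes and 12 barcodes were deposited by the authors, 1 matrix for each mRNA library. The submitters' processing notes list Cell Ranger 6.0.2, bcl2fastq 2.20.0.422, Seurat 4.1.0 and build hg38. Filters before deposit and the annotation release were not given in the sources used here. Kept cells had 1000 genes or more and 15% or less mitochondrial UMIs. Barcodes highest in at least 1% of a library's kept cells were taken as present, and cells were assigned by HTODemux (Seurat 5.3.0, positive quantile 0.99). Cells with several barcodes were left out as doublets; no other doublet caller was run.

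The 9 members and all gene lists were chosen with earlier results of these data known. Tiers were 3 equal parts of each score within population and library, on cells thinned to 10000 UMIs; the full UMIs of these cells were then added up by library and tier, giving 12 sums. edgeR 4.0.16 was run in R 4.3.3 (filterByExpr, TMM, quasi-likelihood test), blocking on library since tiers of 1 library share its preparation, and Benjamini-Hochberg adjustment over all genes tested, calling at 0.05. The common biological coefficient of variation was 2.41% and 2.85%. Score genes were not tested in their own comparison. The test was checked on simulated data. DESeq2 1.42.0 was an alternative. Log2 ranges use a pseudocount of 1 CPM. Named pathway genes are those with the 2 largest called rises and falls per list, and the 10 most alike genes; 2 genes that this rule names are not reported here; other genes with population levels (KRT7, COL1A1, PSMB5, PSMB6, PSMB7, PSMB10, PSME1, TAP2, CALR, IRF1, HLA-DRA, CIITA), and CANX, CXCL10 and GBP1 where they did not pass, were chosen after their values were seen.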

Additional observations from a re-analysis of the deposited data

Results flagged for a closer look

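For HLA-F, the log2 difference between the high and the low mesenchymal tier was -0.66 in library 1 and between -0.51 and -0.49 in the other 3, so library 1 stood apart, its gap to the next library being 0.847 of the whole range, above Dixon's limit for 4 samples. It was the only outlying group of 27 tested in this way, and chance alone marks about 1 in 20. Without library 1, HLA-F still fell by 0.49.

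PSMB9 was lower at the mesenchymal end in both libraries of the first pool (mean log2 difference -0.100) and higher in both of the second (0.051). NLRC5 moved likewise, at -0.238 in libraries 1 and 2 and 0.095 in libraries 3 and 4. The difference between the pools was not tested for either gene, and neither passed in the comparison over all 4 libraries.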

How the results depend on the processing

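The rise of all 9 members with the interferon score was kept under all 17 alternatives. Of the members' mesenchymal values under alternatives, 116 kept their direction and call, 21 lost the call, 2 gained it and 5 turned sign. PSMB9 was at 0.086 in tiers inside interferon tiers, 0.022 without SBO05 and -0.051 to 0.031 without 1 library, and NLRC5 at 0.043 without SBO01 and SBO12 and -0.13 to 0.041 without 1 library, the positive values being those without library 1; neither gene is called in the main comparison, and the cause was not tested. Leaving out 1 library gave 5 to 7 members called.

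The library block pairs the tiers of 1 library. With no replicate block the genes called dropped from 5387 to 1337 for the interferon score and from 5159 to 1389 for the mesenchymal score, and the members called for the latter from 7 to 2. Tiers inside interferon tiers gave 2 and omitting SBO01 and SBO12 gave 4. Thinned UMIs gave 3224 and 2903 genes called, with fewer genes tested, and DESeq2 gave 3206 for the mesenchymal score; leaving out 1 library gave 4430 to 4738 and 4113 to 4204.

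The range of the mean class I level over populations, 1.38 on the log2 scale, was 1.52 under both the top barcode rule and own barcode highest, 1.41 with a pseudocount of 0.1 CPM, 1.37 with cells weighted equally and 1.34 to 1.41 without 1 library. Unthinned shares were 89.6% for HLA-B, 98.0% for HLA-C, 88.3% for HLA-E, 46.6% for HLA-F, 99.6% for B2M, 67.8% for TAP1, 84.7% for PSMB8, 74.0% for PSMB9 and 9.47% for NLRC5. Without SBO05, 6 of the 10 most alike genes remained. Thinning took TAP1 from 67.8 to 39.3% and NLRC5 from 9.47 to 3.29%, so the size of a share holds only for its depth. Populations were therefore compared on thinned cells.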
